A study of Homo sapiens with 8 samples.

Results

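The regions described here are m1A peaks that the authors' lists assign to intergenic long noncoding RNAs (lncRNAs), transcripts annotated outside other genes. N1-methyladenosine (m1A) is a methyl mark on the base-pairing edge of adenosine, enriched here with an antibody before sequencing. They were chosen as every row of the 4 lncRNA peak lists whose relationship to other genes is given as intergenic, with 1 row per peak and list. In all, 2007 of the 8011 lncRNA peaks in the lists met this rule. By position they merged into 1224 regions, counting an overlap of at least 1 base, on 1138 transcripts and 1082 gene names. RNA came from 5637, an established human bladder cancer cell line, compared between cells with stable knockdown of TRMT61A and control cells labelled WT. Each group had 2 samples, called knockdown 1 and 2 and control 1 and 2, and each sample gave an input library and an m1A immunoprecipitation. Both groups are the same cell line with no further treatment named in the labels, which give neither the sequence nor the vector of the knockdown, nor how many clones it rests on. The labels do not state that samples of a group are separate cultures. A p-value therefore covers the scatter of these 4 samples alone, and that scatter may be technical.

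TRMT61A is the catalytic subunit of the TRMT6/TRMT61A methyltransferase, which places m1A in the T loop of cytosolic tRNAs. The T loop is coded by the same stretch of the gene as the B box, an internal promoter element that RNA polymerase III factors bind, so its sequence is alike in nearly all tRNA genes. Other transcripts of polymerase III are the 7SL RNA of the signal recognition particle, the 7SK RNA that holds back an elongation kinase, and the Y RNAs of Ro particles, and all 3 have many scattered copies in the genome. Many genes annotated as intergenic lncRNAs are processed copies of coding genes, and others host small nucleolar RNAs (snoRNAs) or microRNAs (miRNAs) in their introns or exons.

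TRMT61A itself measured 13.4 and 6.71 CPM, which are counts scaled to the library size, in knockdown inputs and 19.8 and 14.7 CPM in control inputs, with a log2 fold change of -0.78 ± 0.29 (SE, n = 2 each). The knockdown values were below both control values without overlap, and the adjusted p of edgeR's quasi-likelihood test was 1.00 (0.0278 unadjusted). Input libraries held 2217562 and 2119359 lncRNA counts in knockdown and 1727826 and 2304288 in control. The 9 urothelial and epithelial markers measured 40.1 to 1144 CPM over the 4 inputs, the 5 immune markers at most 0.980 CPM and the 4 endothelial markers at most 1.77 CPM. Of 6 fibroblast markers, COL1A1 stood at 27.8 to 39.5 CPM and the others at no more than 5.17 CPM.

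Examples of 3 kinds of listed region show what lies at them. The first kind is a tRNA gene. The genes below lie at or beside listed regions and are read 5′ to 3′ on the strand that holds the motif GTTCNANNC, searched on both strands, with the motif in capitals. Each comes from RefSeq on GRCh38.p14.
TRN-GTT4-1: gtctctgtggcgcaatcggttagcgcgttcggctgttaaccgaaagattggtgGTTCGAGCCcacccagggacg
TRT-TGT6-1: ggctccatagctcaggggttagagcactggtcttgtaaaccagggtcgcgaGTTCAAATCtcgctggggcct
TRI-TAT2-2: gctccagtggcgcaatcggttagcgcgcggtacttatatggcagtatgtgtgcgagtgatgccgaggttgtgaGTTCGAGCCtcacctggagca

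TRN-GTT4-1, for asparagine, lies at chr1:16889677-16889750 on the plus strand, 28 bases from a region on BX284668.5. TRT-TGT6-1, for threonine, lies at chr5:181191687-181191758 on the minus strand and overlaps the region on LINC01962. TRI-TAT2-2, for isoleucine, lies at chr6:27020346-27020439 on the plus strand, 14 bases from the region on LINC00240. The genes are 74, 72 and 94 bases long, and in all 3 the A of GTTCNA is followed by 15 bases to the end of the gene. That A is the position at which cytosolic tRNAs carry the T-loop m1A, as background knowledge. In all 3 examples the motif lies outside the listed region. The region on LINC01962 reaches only the 5′ end of TRT-TGT6-1, and the other regions do not overlap their tRNA gene. The motif is short, and 7.48% of 35116 gene start windows of 300 bases in the same source hold it on either strand.

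The second kind is a region at the start of a host gene. The window around the start of MIR663AHG, host of miR-663a, spans chr20:26209184-26209483 on the minus strand. Its 199 capital bases are the region chr20:26209264-26209462, listed in all 4 samples at folds of 219 to 1023. The region is at the 5′ end of the transcript in the authors' lists, and no RefSeq gene lies under it.
MIR663AHG: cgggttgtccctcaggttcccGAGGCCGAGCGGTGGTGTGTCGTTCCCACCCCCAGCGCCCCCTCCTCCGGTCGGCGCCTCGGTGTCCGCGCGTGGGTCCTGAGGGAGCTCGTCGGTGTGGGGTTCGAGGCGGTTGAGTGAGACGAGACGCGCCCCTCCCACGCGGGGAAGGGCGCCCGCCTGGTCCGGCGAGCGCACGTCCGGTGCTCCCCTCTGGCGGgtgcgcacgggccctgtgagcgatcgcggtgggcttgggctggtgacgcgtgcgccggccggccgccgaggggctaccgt

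G and C make up 75.4% of the capital bases, and the window holds 1 match to the motif above. The third kind is a miRNA hairpin inside a listed region. On H19, an imprinted lncRNA, the region chr11:1996518-1997875 spans the whole hairpin of MIR675 at chr11:1996759-1996831 (minus strand). Its mature products are shown with the seed, bases 2 to 8, in capitals.
hsa-miR-675-5p: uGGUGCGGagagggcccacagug
hsa-miR-675-3p: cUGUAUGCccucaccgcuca

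Intergenic peaks were neither fewer nor more numerous in knockdown than in control beyond the spread between samples. Knockdown samples 1 and 2 had 647 and 351 peaks, and control samples 1 and 2 had 567 and 442. The control values lay between the knockdown values. Means were 499 ± 209 peaks in knockdown and 504.5 ± 88.4 in control (SD, n = 2 each), a ratio of 0.989, with p = 1.0 in an exact two-sided permutation test whose smallest possible p is 0.333. As a share of all lncRNA peaks, the intergenic ones made up 27.6% and 25.4% in knockdown and 21.9% and 26.1% in control. This difference of 2.50 percentage points had p = 0.667 in the same exact permutation test, and the groups overlapped.

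Most regions were listed once. Of the 1224 regions, 807 (65.9%) were in 1 list, 187 in 2, 102 in 3 and 128 (10.5%) in all 4. Peaks on lncRNAs of the other classes merged into 3843 regions, of which 7.31% were in all 4. Peaks that no other list shared numbered 350 in knockdown 1, 87 in knockdown 2, 234 in control 1 and 136 in control 2. The longest list thus had the most unshared peaks. The peaks at the 128 regions in all 4 lists numbered 130, 131, 129 and 129 in the same order.

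Shared and unshared peaks differed in strength within each list. Fold here is the authors' ratio of immunoprecipitated over input reads at a peak, and it was used only to describe and rank peaks. At the regions in all 4 lists the median fold was 19.3 in knockdown 1, 13.0 in knockdown 2, 22.9 in control 1 and 19.3 in control 2. At regions found in no other list it was 5.86, 5.51, 4.82 and 5.50 in that order. Many unshared peaks also carried the same few folds. In knockdown 1, 34 peaks had a fold of exactly 5.08, and 47.0% of peaks shared their fold with at least 4 others, against 30.5% in knockdown 2, 29.5% in control 1 and 39.8% in control 2. Of the knockdown 1 peaks with such a shared fold, 72.0% were in no other list, against 38.2% of the remaining peaks.

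**Figure D1:**
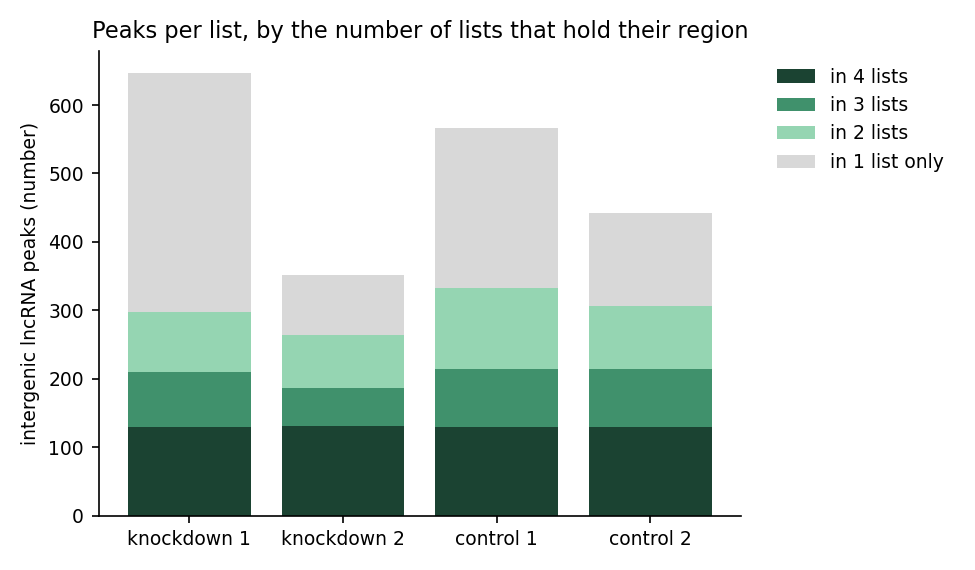
Number of intergenic lncRNA peaks in each list (vertical axis), split by how many of the 4 lists hold a peak of the same merged region. The darkest block is about equal in the 4 lists (129 to 131 peaks), while peaks in 1 list only range from 87 in knockdown 2 to 350 in knockdown 1.

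Set against lncRNA peaks of the other classes, the intergenic ones had higher median folds and more often overlapped tRNA genes in every list, but the exact sign-flip test used here cannot go below 0.05 with 4 lists. The median fold of the intergenic peaks was 7.03 and 7.09 in knockdown and 6.92 and 8.25 in control, above the 6.25, 6.30, 6.22 and 6.76 of the other classes in the same lists. It was higher in 4 of 4 lists, at the smallest p that an exact two-sided sign-flip permutation test over 4 samples allows (p = 0.188 once adjusted over 3 comparisons). Median widths of 277 and 287 bases in knockdown and 307 and 296 in control were above those of the other classes in 3 of 4 lists (exact permutation p = 0.25). Peaks that overlapped a RefSeq tRNA gene made up 1.70% and 3.13% of intergenic peaks in knockdown and 2.12% and 2.71% in control. In the other classes the share was 0.472% and 0.871% in knockdown and 0.346% and 0.638% in control, so the intergenic share was higher in 4 of 4 lists, again at the smallest p of the exact permutation test (0.188 adjusted).

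Grouped by the RefSeq gene under them, the regions were mostly copies of other genes. This grouping was made after the lists had been seen, and it is given as a description. Each region entered a single class by a fixed order: tRNA genes, other small or copied RNAs, pseudogenes, protein-coding genes, then lncRNAs. A class therefore leaves out regions that also lie over such a gene but were classed earlier. The pseudogene class held 687 regions (56.1%), lncRNAs alone 245, protein-coding genes 69, polymerase III RNA copies 44, mitochondrial gene copies 24 and tRNA genes 12. Small nuclear or nucleolar RNAs made up 7 regions, ribosomal RNA copies 7 and miRNAs 2, while 3 held other genes and 124 had no RefSeq gene. The share found in all 4 lists varied between classes. Of the 12 regions over tRNA genes 10 were in all 4 lists, as were 5 of 7 over small nuclear or nucleolar RNAs, 7 of 24 over mitochondrial gene copies, 11 of 44 over polymerase III copies and 73 of 687 over pseudogenes, and 11 of 245 over lncRNAs alone.

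**Figure D2:**
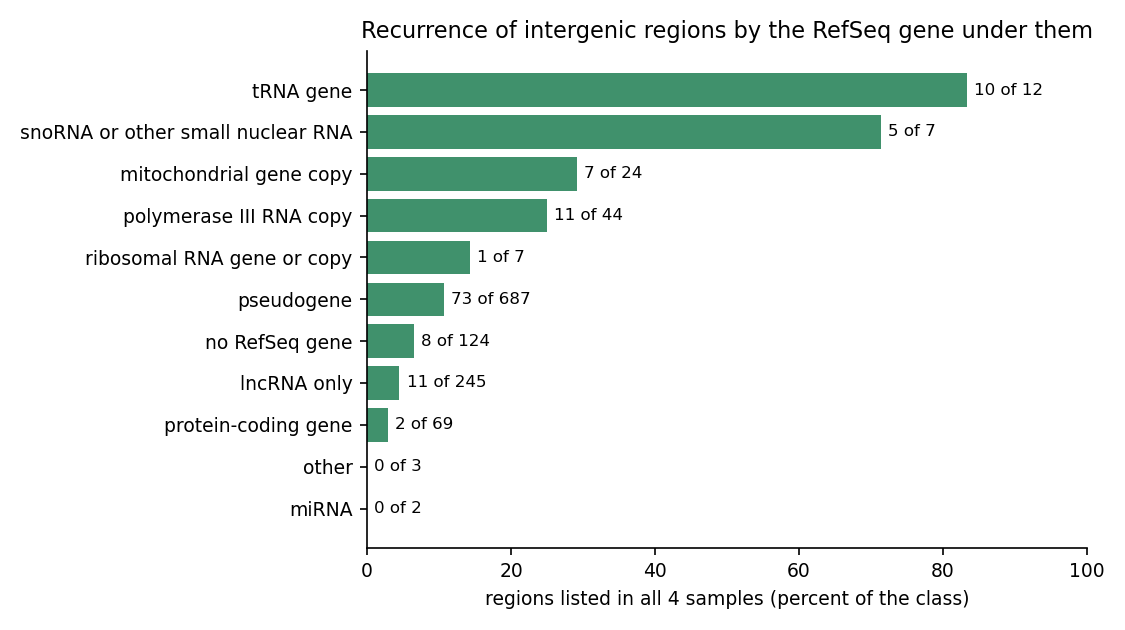
Percent of the merged regions of each class that were listed in all 4 samples (horizontal axis), with the number of regions beside each bar. Regions over tRNA genes stand highest with 10 of 12, and regions over lncRNAs alone stand at 11 of 245.

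The deposited interval of a peak did not extend past its transcript. Every one of the 2007 intergenic peaks lay within the bounds of the assigned transcript, and 60.6% began or ended exactly at a transcript end. At 308 peaks the interval was the whole transcript. Of the 417 regions in at least 2 lists, 124 had identical bounds in every list that held them. A listed region can therefore stop at a transcript end just short of a neighbouring tRNA gene, and distances to the nearest tRNA gene were measured for this reason.

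Regions at tRNA genes carried the highest folds of all intergenic peaks. Within 1000 bases of a RefSeq tRNA gene lay 25 regions on 21 gene names, of which 20 were in all 4 lists. Elsewhere 108 of 1199 regions were in all 4 lists. The 12 that overlapped a tRNA gene are 0.980% of all regions (95% Wilson interval 0.562% to 1.71%, counting error only). Of the 25, 5 had an asparagine tRNA gene nearest, and aspartate and glutamate genes followed with 3 regions each. The median fold of peaks at the 25 regions was 274 and 83.2 in knockdown and 117 and 148 in control, against 7.03 and 6.79 in knockdown and 6.82 and 7.79 in control at the other regions. Folds above 1000 were reached by 8 and 4 peaks in knockdown and 4 and 6 in control, and all but 1 lay within 1000 bases of a tRNA gene. The exception was the MIR663AHG region in knockdown 1. The cut of 1000 bases was chosen after the values had been seen, and the fold is described here, not tested.

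AJ003147.1 had the highest lowest fold of any region present in all 4 lists. Its region at chr16:3183950-3184018 is 69 bases long, reaches the 5′ end of the transcript and lies 115 bases from TRP-TGG3-4, a proline tRNA gene. Folds there were 28069.7 and 20861 in knockdown and 12719 and 18260.2 in control. The knockdown folds were the higher ones, and the input held almost no read of the transcript, with 0 and 1 counts in knockdown and 0 and 1 in control.

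LINC00324, a lncRNA on chromosome 17, carried 3 regions at 4 tRNA genes. The region chr17:8222293-8223061 shares 17 bases with TRD-GTC2-11, for aspartate, and holds the whole of TRP-CGG1-3, for proline, at chr17:8222833-8222904. A single peak reached over both genes in knockdown 1 with a fold of 12560.4 and in control 1 with a fold of 26999. Separate peaks covered them in sample 2 of each group: over the proline gene the folds were 7707 in knockdown 2 and 7019 in control 2, and at the aspartate gene they were 83.7 in knockdown 2 and 46.1 in control 2. Where a list held several peaks in a region, as in 7 of all 1224 regions, the highest fold stands for the list elsewhere. Beside TRG-TCC3-1, for glycine, the region chr17:8221368-8221509 had folds of 10401 and 16153 in knockdown and 19448 in control 2, and was not listed in control 1. Over TRW-CCA1-1, for tryptophan, the region chr17:8220690-8221096 had folds of 498 and 82.7 in knockdown and 235 and 277 in control. At the first and the last of these the knockdown and control folds interleaved, while at the glycine gene both knockdown folds were below the one control fold listed. The transcript had 23 and 19 input counts in knockdown and 17 and 25 in control.

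On AL592295.3 the region chr1:161470470-161470523 overlaps only part of TRD-GTC2-5, which lies at chr1:161470415-161470486. The region had a fold of 5.08 in knockdown 1, the value that 34 peaks of that list share. It was not listed in knockdown 2. In control its folds were 52297 and 54574. This was the widest gap between groups at any region near a tRNA gene. The interval is 54 bases long and the transcript had 3 and 15 input counts in knockdown and 2 and 11 in control. TRD-GTC2-5 and TRD-GTC2-11 belong to a set of tRNA genes that share 1 mature sequence, by their names, so that a read within the tRNA cannot be assigned to one of them. A second region on the same transcript, 58 bases from TRN-GTT2-2, had folds of 19.5 and 8.86 in knockdown and 8.34 and 15.1 in control.

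AC108134.2 was the most even of the strong regions. It overlaps TRK-CTT3-1, for lysine, at chr16:3157225-3157483, with folds of 1166 and 1122 in knockdown and 973 and 1019 in control. Both knockdown folds were higher than both control folds, by little. Input counts of the transcript were 15 and 24 in knockdown and 15 and 9 in control. In LINC01556 the region chr6:28944429-28944537 lies 38 bases from TRM-CAT3-1, for methionine, with folds of 1035 and 571 in knockdown and 403 and 595 in control. AC084082.1 on chromosome 8, over the tyrosine gene TRY-GTA5-1, had folds of 477 and 690.4 in knockdown and 249 and 1619 in control.

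The remaining regions of this kind were weaker or less even. AC246785.2 near TRN-GTT3-1 had folds of 1659 and 216 in knockdown and 1177 and 210.2 in control, so that sample 1 was the higher of each group. AC245014.1, 11 bases from TRN-GTT2-7, had folds of 1972 and 194 in knockdown and 131 and 164 in control. The region of AL592295.4 over TRE-TTC4-2, for glutamate, had folds of 337 and 294 in knockdown and 117 and 148 in control, without overlap. AL121936.1 near TRA-AGC11-1, for alanine, went the other way, with folds of 81.4 and 159 in knockdown and 547 and 349 in control. So did a second region of AL592295.4, over TRV-CAC1-1, with folds of 8.01 and 5.51 in knockdown and 9.04 and 16.97 in control. LINC01962, over the threonine gene shown above, had folds of 151 and 57.1 in knockdown and 125 and 59.6 in control. BX284668.5 beside the asparagine gene shown above had folds of 49.4 and 18.3 in knockdown and 14.8 and 20.4 in control. LINC00240 beside the isoleucine gene had folds of 16.2 and 8.07 in knockdown and 31.0 and 26.8 in control. Regions within 1000 bases that were in 1 list only were on AL021368.3 (fold 5.51 in control 1), LINC02136 (5.08 in knockdown 1) and MIR1302-2HG (3.10 in control 1).

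**Figure D3:**
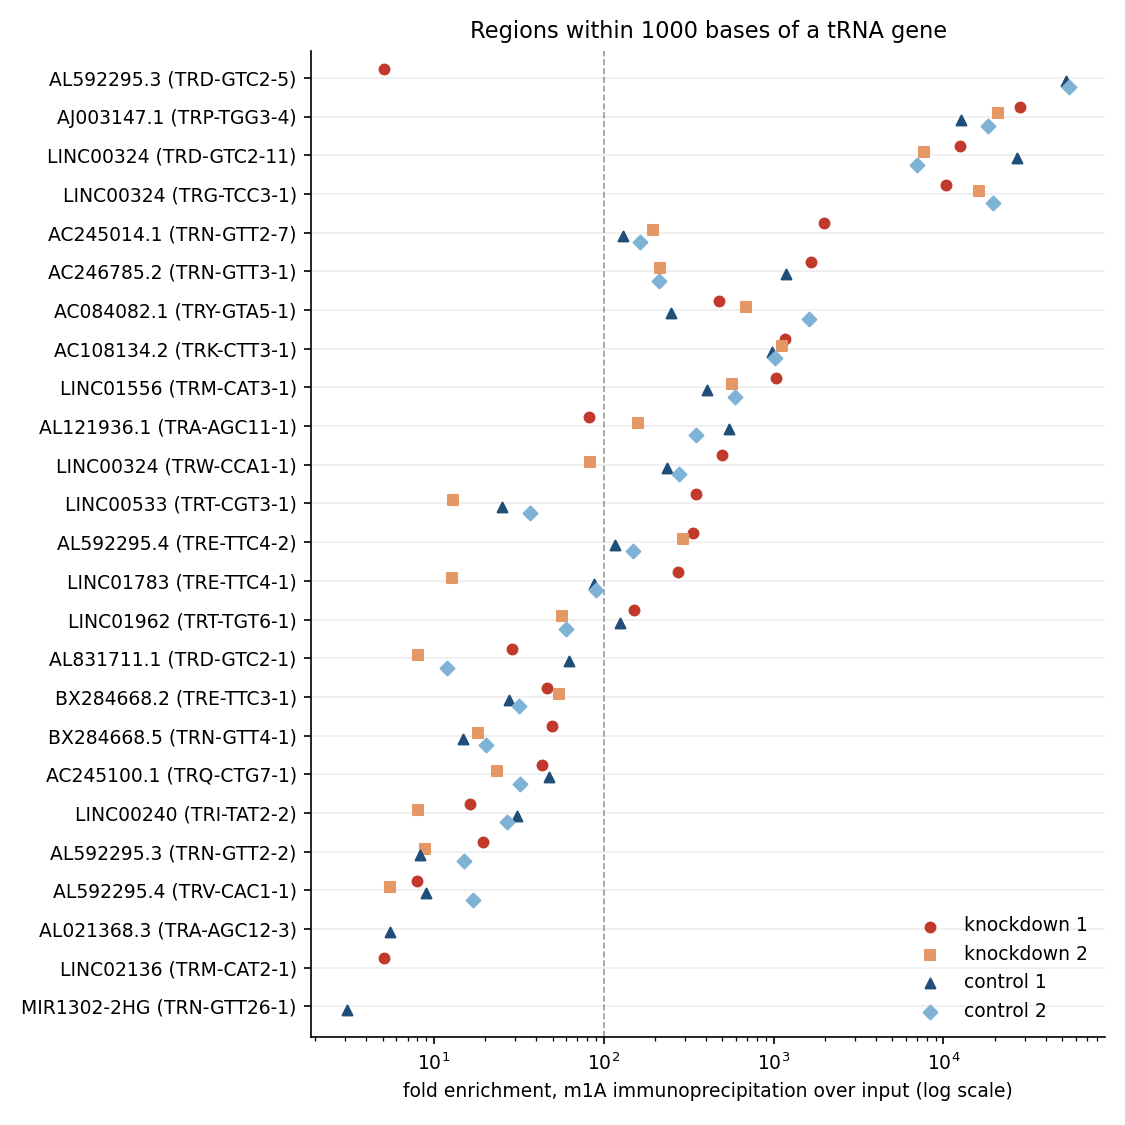
Fold enrichment (horizontal axis, log scale) of the 25 regions within 1000 bases of a tRNA gene, named by lncRNA and nearest tRNA gene, in each of the 4 lists, where no point means not listed and the dashed line marks a fold of 100. The LINC00324 region named by TRD-GTC2-11 also holds TRP-CGG1-3. The 4 top regions reach folds of 19448 or more in at least 1 list, and the knockdown points lie on both sides of the control points from region to region.

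The RNA level of these lncRNAs was low. Of the 21 transcripts at the 25 regions, 15 were in the count table, and none of these 15 had more than 29 counts in any input. Of all 1138 transcripts under an intergenic peak, 762 were in the count table and the rest were not listed there. Peaks on transcripts with a mean of at least 100 counts numbered 198, and 1 of them had a fold above 100. Among the 710 peaks on transcripts with a mean under 10 counts it was 35, and among the 494 with a mean of 10 to 100 counts it was 25. Transcripts not in the count table had 605 peaks, of which 36 had a fold above 100.

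Other regions with high folds held no tRNA gene within 1000 bases. MIR663AHG, whose start is printed above, had folds of 1023 and 613 in knockdown and 335 and 219 in control at that region, higher in knockdown without overlap. Its second region, chr20:26207865-26208078, was listed in knockdown 2 with a fold of 812 and in control 1 with a fold of 181. Input counts of the transcript at the first region were 1 and 0 in knockdown and 2 and 1 in control. The transcript at the second region was not in the count table. AC089984.3 had folds of 231 and 349 in knockdown and 680 and 375 in control. AC007179.2 had folds of 146 and 239 in knockdown and 418 and 259 in control. In both, the control folds were the higher ones. LINC00273 had folds of 145 and 111 in knockdown and 138 and 127 in control, with the groups interleaved. AC010970.1, over the ribosomal RNA copy RNA18SP2, was also among the 15 regions with the highest lowest fold over the 4 lists.

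By gene symbol, some of the pseudogene regions fell into families. Symbols of ribosomal protein genes or their copies stood at 112 regions (111 of them in the pseudogene class), of which 18 were in all 4 lists. Keratin symbols stood at 28 regions with 4 in all lists. Symbols of HNRNP genes, which encode nuclear RNA-binding proteins, stood at 24 with 8 in all lists, and those of translation factor genes at 20 with 8. Prothymosin alpha copies lay under 7 regions, of which 5 were in all lists and none in only 1. PTMAP5, one of them, was listed over 1162 bases at chr13:81689911-81691072 with folds of 173 and 90.3 in knockdown and 275 and 178 in control. The transcript had 11 and 4 input counts in knockdown and 6 and 8 in control, while the parent gene PTMA measured 741 and 617 CPM in knockdown and 777 and 765 CPM in control. How reads were split between such copies and their parent genes is not given in the sources used here, so both the peaks and the counts of copies are uncertain. MTND1P26, a nuclear copy of the mitochondrial gene ND1, had folds of 508 and 219 in knockdown and 103 and 227 in control.

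Host genes of small RNAs, taken by gene name, carried 25 regions on 17 genes, of which 4 were in all 4 lists. SNHG7, a snoRNA host gene on chromosome 9, was listed over 1240 bases that include SNORA17A and SNORA17B. Folds there were 30.5 and 54.2 in knockdown and 30.2 and 31.1 in control. The transcript measured 64.4 and 40.1 CPM in knockdown and 32.6 and 39.7 CPM in control, with a log2 fold change of 0.52 ± 0.28 (adjusted p = 1.00 in edgeR). The groups did not overlap, but the difference did not pass the test, and it was 0.14 without knockdown 1 and 0.82 without knockdown 2. The fold of knockdown 2 is the higher of 2 peaks there. SNHG25, which holds SNORA50C under its region, had folds of 7.31 and 14.9 in knockdown and 22.9 and 13.0 in control. PVT1, a lncRNA beside the MYC oncogene on chromosome 8, had folds of 6.96 and 21.6 in knockdown and 11.2 and 18.95 in control. H19, with the miR-675 hairpin shown above inside its region, was listed in knockdown 1 with a fold of 9.85 and in controls with folds of 15.5 and 15.2, and not in knockdown 2.

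The remaining host gene regions were in 1 or 2 lists. DANCR, a host of snoRNAs, was listed in both knockdown samples with folds of 10.5 and 10.4 and in neither control. Its transcript had 19 and 18 input counts in knockdown and 19 and 22 in control. SNHG11, whose region lies over SNORA71E, was in neither knockdown list and had folds of 24.7 and 16.7 in control. SNHG14, the long host of the imprinted snoRNA clusters on chromosome 15, had 4 regions, each in 1 list. MIR193BHG, MIR34AHG and MIR4458HG had 2 regions each, all in 1 list only. MIR29B2CHG was listed in control 1 alone with a fold of 3.49 although its transcript measured 344 and 396 CPM in knockdown and 311 and 351 CPM in control.

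Polymerase III RNAs and their copies carried 43 regions by name, of which 11 were in all 4 lists. RN7SL2, a 7SL RNA gene, was the most abundant transcript under an intergenic peak. Its folds were low, 2.76 and 5.09 in knockdown and 4.2 and 3.89 in control. Input counts were 156691 and 102637 in knockdown and 134124 and 160724 in control, most of all counts of the member transcripts. RN7SL3, the second 7SL gene in the set, had folds of 10.98 and 16.3 in knockdown and 10.1 and 9.33 in control, higher in knockdown without overlap. The copy RN7SL396P on chromosome 8 had folds of 30.9 and 30.1 in knockdown and 326 and 258 in control, on at most 8 input counts per library.

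Y RNA genes were both in all lists. RNY3 had folds of 9.76 and 9.84 in knockdown and 116 and 46.1 in control. RNY1 had folds of 4.23 and 13.4 in knockdown and 15.7 and 14.3 in control. In both genes the control folds were above the knockdown folds, with 9 and 7 RNY3 counts in knockdown inputs and 4 and 21 in control inputs. RNY1 had 0 and 0 counts in knockdown inputs and 3 and 0 in control inputs, so its folds rest on almost no input reads. The 7SK copy RN7SKP255 had folds of 91.3 and 11.03 in knockdown and 159 and 131 in control. RN7SL151P, a 7SL copy, had similar folds throughout, 29.7 and 32.1 in knockdown and 24.5 and 31.0 in control. Near-identical copies share reads in these families, so the copy that a read came from is uncertain.

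**Figure D4:**
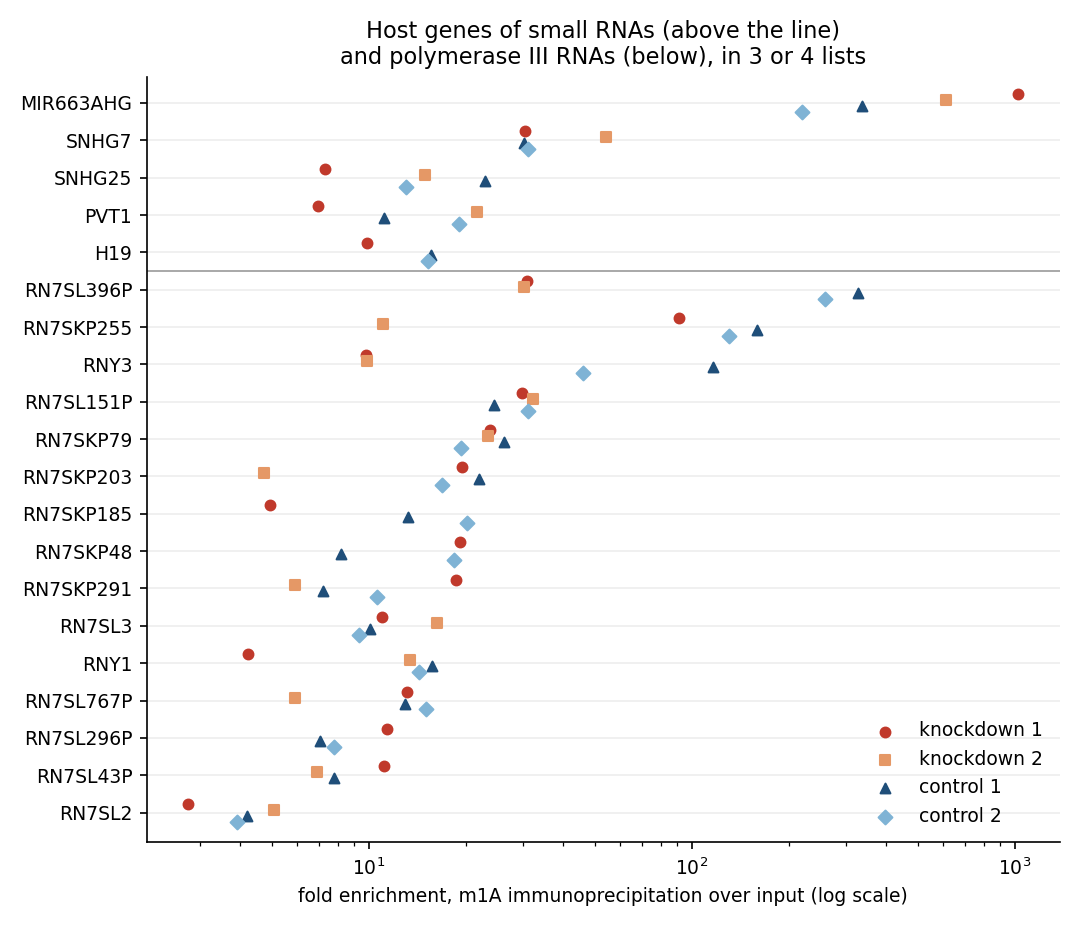
Fold enrichment (horizontal axis, log scale) in each of the 4 lists of the regions on host genes of small RNAs (above the line) and on polymerase III RNAs (below it) that were in 3 or 4 lists, where no point means not listed. RNY3 and RN7SL396P show both control points to the right of both knockdown points, while SNHG7, RN7SL151P and RN7SKP79 show interleaved points.

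Of the list of abundant and cancer-linked lncRNAs, 5 carried an intergenic region: H19, PVT1, CYTOR, CRNDE and OIP5-AS1. CYTOR, CRNDE and OIP5-AS1 were each in 1 list, with folds of 7.52 in knockdown 1, 5.37 in control 1 and 3.30 in control 2. Only the CYTOR transcript was tested for its level, at 195 and 168 CPM in knockdown and 237 and 192 CPM in control (log2 fold change -0.24 ± 0.16, edgeR adjusted p = 1.00). It was -0.14 without knockdown 2, -0.09 without control 1, -0.39 without control 2 and -0.10 with counts summed per gene name.

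Some regions were listed in both samples of 1 group and in neither of the other. There were 32 in knockdown alone and 55 in control alone, beside 437 in 1 knockdown sample only and 370 in 1 control sample only. A further 100 regions were listed in 1 sample of each group. By the highest lowest fold, those in knockdown alone were led by HNRNPA1P41 (15.4 and 11.02), DANCR, MT2P1 (10.9 and 9.45), AL645608.9 (12.5 and 7.87) and AC114737.1 (14.2 and 7.84). Those in control alone were led by RPL5P17 (35.8 and 24.5), HMGB1P5 (18.2 and 18.1), SNHG11, YWHAZP2 (21.8 and 15.8) and AL445363.1 (16.9 and 13.8). Of these 10, 6 are copies of coding genes: HNRNPA1, metallothionein 2A, DTX2, the ribosomal protein gene RPL5, HMGB1 and YWHAZ. These 6 are in the pseudogene class, which held 56.1% of all regions, so the share is near that of the whole set. An absent listing is not a measured absence of m1A, since every listed peak had a score of at least 50 and weaker ones are not in the lists.

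The input level of the member transcripts did not pass the test in either direction. Of the 1138 transcripts 366 were tested, and 0 had an adjusted p below 0.05 in edgeR's quasi-likelihood test (background over all 22803 lncRNA transcripts tested: 0.0219% in either direction, 0.00439% higher and 0.0175% lower in knockdown). DESeq2 also called 0 members. At an unadjusted p below 0.05 there were 20 of 366 (5.46%) in edgeR, against a background of 4.55%. In DESeq2, which tested 762 members without that filter, it was 13 (1.71%), against 1.63% of all 48055 transcripts. Of the 20, 8 were higher in knockdown (2.19% of 366, background 2.35%) and 12 were lower (3.28%, background 2.19%). In bulk RNA of a culture, fewer cells with a transcript and less of it per cell cannot be told apart. In 109 of 366 (29.8%) the CPM of the groups did not overlap, against 33.1% of all transcripts tested. Knockdown was higher for 165 and lower for 201, and the median log2 fold change was -0.03, against 0.00 over all transcripts tested. In a simulation of the 22803 transcripts, changes were set only in transcripts with a mean of at least 50 counts, which 149 of the 366 tested members had. Among these, it called 2% of the transcripts changed by 1.5-fold, 46% of those changed by 2-fold and 96% of those changed by 4-fold, beside 8 false calls. Recovery at lower counts was not tested.

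SPCS2P4, a copy of a signal peptidase subunit gene, had the smallest p. It had 255 and 997 counts in knockdown inputs and 222 and 172 in control inputs. Knockdown 2 alone stood apart, and knockdown 1 lay within the range of the controls after scaling, at 119 CPM against 134 and 76.7 CPM. The log2 fold change was 1.52 ± 0.34 (adjusted p = 0.280 in edgeR), and it was 0.19 without knockdown 2. The parent gene SPCS2 measured 83.6 and 64.5 CPM in knockdown and 82.2 and 87.5 CPM in control. Its peak was listed in knockdown 1 only, with a fold of 6.0.

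FP236241.1 on chromosome 21 had the next smallest p, with 7 and 3 counts in knockdown and 20 and 35 in control. The log2 fold change was -2.52 ± 0.66 (adjusted p = 0.692 in edgeR), and the groups did not overlap. RN7SL2, at 73088 and 49590 CPM in knockdown and 81066 and 71704 CPM in control, had a log2 fold change of -0.32 ± 0.10 (adjusted p = 1.00 in edgeR). Knockdown 2 was its lowest library, and the value was -0.06 without it and -0.63 without knockdown 1. FAM95B1 had 47 and 20 counts in knockdown and 10 and 8 in control, with a log2 fold change of 1.74 ± 0.58 (adjusted p = 1.00 in edgeR), which was 1.02 without knockdown 1 and 1.10 with counts summed per gene name. FAM3C2 measured 174 and 168 CPM in knockdown and 113 and 123 CPM in control, with a log2 fold change of 0.53 ± 0.17. This difference did not pass the adjusted threshold in edgeR either. AC068491.4, AP002761.4, SRGAP2D, AC025048.2 and MTCO1P12 had lower means in knockdown, with log2 fold changes of -1.12 to -0.47 and no overlap between groups. Each had an adjusted p of 1.00 in edgeR. The value of AC068491.4 was -0.28 and that of AC025048.2 -0.69 without control 1, that of AP002761.4 was -0.31 without knockdown 2, and that of MTCO1P12 was -0.31 without knockdown 2 and -0.25 without control 2.

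**Figure D5:**
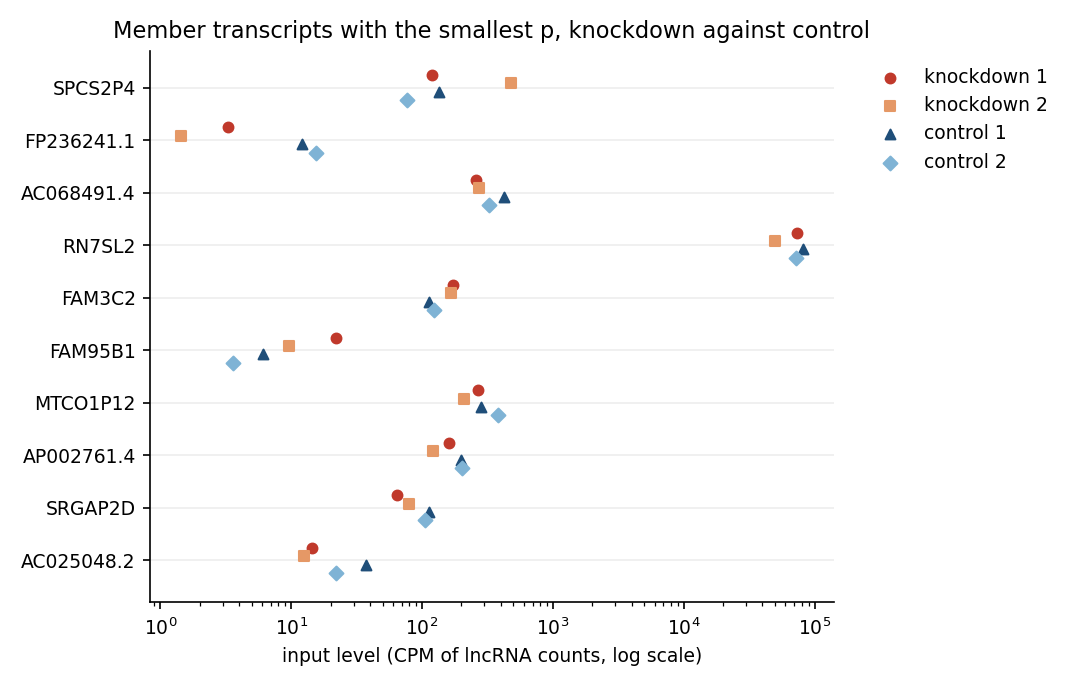
Input level in CPM (horizontal axis, log scale) of the 10 member transcripts with the smallest p among those with a mean of at least 5 CPM, in the 2 knockdown and 2 control libraries. SPCS2P4 is set apart by knockdown 2 alone (482 CPM), and RN7SL2 lies at 49590 to 81066 CPM, far above the other 9.

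Host genes of small RNAs under an intergenic peak, taken by gene name, had 10 transcripts tested. In knockdown 5 were higher and 5 lower. Of the 10, 0 passed the test and 0 had an unadjusted p below 0.05, against the background of 0.0219% and 4.55% of all transcripts. Among all 111 tested transcripts of that list, with or without an intergenic peak, 0 passed and 7 had an unadjusted p below 0.05. AC068491.4, whose region lies over the host gene MIR4435-2HG in RefSeq, was not taken in by name. Its log2 fold change was -0.48, with an unadjusted p of 0.00335 in edgeR. Of the polymerase III RNAs and copies 7 were tested, with 3 higher, 4 lower and 0 past the test, and 1 (RN7SL2) had an unadjusted p below 0.05. Among all 148 tested transcripts of that list 1 passed and 11 had an unadjusted p below 0.05. The median log2 fold change was 0.01 for the host gene members and -0.11 for the polymerase III members, against 0.00 over all transcripts tested.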

How the data were processed

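Per the labels' protocols, ribosomal RNA was removed, m1A was enriched with an immunoprecipitation kit and libraries were directional. The submitters' processing notes name build hg38 and, with roles not given in the sources used here, edgeR, STAR, HTSeq 0.9.1 and HISAT2 2.0.4. Values of 2 kinds were taken from the authors' tables, per the file headers: unnormalized counts for the inputs (per lncRNA transcript, and per gene for mRNA), and for each peak the authors' fold, a linear ratio of immunoprecipitate over input, with a score that was at least 50. The 8 normalized columns beside the counts were left out. Transcripts repeated over rows, always with the same counts, entered once. Peaks were called per sample, as 1 list each, and peak reads were not analysed here.

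Starts were turned to 1-based positions, and peaks of the 4 lists were merged where they overlapped by at least 1 base, ignoring strand. Gene classes and distances came from RefSeq on GRCh38.p14, which holds 465 tRNA genes on the chromosomes and shares the coordinates of hg38. The fit to the counts used edgeR 4.0.16 under R 4.3.3: TMM scaling, a quasi-likelihood test without a block, and filterByExpr at its minimum of 10 counts, with Benjamini-Hochberg adjustment over all 22803 transcripts tested at a threshold of 0.05. Standard errors are those implied by the F statistic. CPM are counts over TMM-scaled library sizes. DESeq2 1.42.0, other scalings and filters, a replicate block, counts per gene name, and leaving out each library were alternatives. The fit was tested on simulated data.

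The members and the lists were chosen with earlier results of these data known. The named set held the 15 regions in all 4 lists with the highest lowest fold. It also held regions over tRNA genes, host genes and polymerase III RNAs, and listed cancer-linked lncRNAs. The 10 transcripts of smallest p with at least 5 CPM, and 5 regions per group found in that group alone, completed it. Not every region over a tRNA gene, host gene or polymerase III RNA is described in the text. Regions within 1000 bases of a tRNA gene, the pseudogene families and the repeated folds were added after seeing the values. The strand setting of the counting is not given in the sources used here, so antisense reads cannot be told apart.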

Additional observations from a re-analysis of the deposited data

How the results depend on the processing

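The exact permutation test of peak numbers and shares cannot go below 0.333 with 2 samples a group. The knockdown over control ratio of peak numbers (0.989) turned to 1.01 with folds of at least 5 and was 0.696 to 1.28 when 1 list was left out. Taken as a replicate block it was 1.14 within replicate 1 and 0.794 within replicate 2. The difference in intergenic share (2.50 points) was 5.71 in replicate 1 and -0.700 in replicate 2 of the same block, and 0.426 to 4.58 with 1 list left out. The share of regions at tRNA genes (0.980%) became 1.96% within 500 bases and 2.04% within 1000, and 1.55% among peaks with a score of at least 100. Regions in all 4 lists numbered 99 to 128 under every alternative run, counting as an added one peaks of any lncRNA class as a listing.

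Where no member transcript passed the test, other settings called 1 to 4. Without a filter 3 passed (NUDT4P2, RN7SL2 and SPCS2P4), with a mean count of at least 10 there was 1 (NUDT4P2), and with the replicate block 2 (RN7SL2 and SPCS2P4). Input deviations of same-numbered samples had a correlation of 0.07. With 2 samples a group this cannot show whether the numbers are a pairing, and the labels do not state one. Leaving out 1 library called 2 to 4: 4 without knockdown 1, 2 without knockdown 2, 2 without control 1 and 3 without control 2, where the lone sample is assumed to vary like the other group. SPCS2P4 was not among the calls without knockdown 2. NUDT4P2 had counts in control 2 alone (89). DESeq2, DESeq2 size factors and counts summed per gene name called 0. Of 329 values of the 33 named transcripts tested, 319 stayed on the same side of the threshold and 10 passed it under an alternative, and the causes were not tested. The low counts limit what can be seen: the median count per library was 23 to 32 among tested transcripts.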
